A study of Mus musculus with 20 samples.

Results

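Leukocyte adhesion and recruitment in the healthy kidney is described here by 10 genes that endothelium uses to catch, hold and attract white blood cells. They are the selectins Sele and Selp, the selectin ligand Cd34, the integrin ligands Icam1, Icam2 and Vcam1, the chemokine-binding receptor Ackr1 and the chemokines Cxcl12, Cx3cl1 and Ccl2. They were chosen by name, and all 10 were found among the 34255 genes of the count table. Reads of 3′ mRNA ends were counted in 20 libraries from kidneys of young adult male wild-type C57BL6/OlaHsd mice, untreated until isoflurane anesthesia and snap freezing. Post-capillary venules, peritubular capillaries, glomeruli and arterioles were laser microdissected from cryosections and are compared with whole kidney sections, with 4 libraries in each of the 5 groups. Whole kidney RNA was amplified with fewer PCR cycles than the microdissected RNA, so library preparation and compartment cannot be told apart in any comparison with whole kidney. Peritubular capillaries were cut from lectin-stained slides and the other compartments from hematoxylin-stained slides, and a smaller area was collected for arterioles and peritubular capillaries.

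A leukocyte leaves the blood in steps. Selectins bind sugars on the passing cell and make it roll, chemokines held on the endothelial surface activate its integrins, and integrins then bind ICAMs and VCAM-1 so that the cell stops and crosses between endothelial cells. In most organs this traffic passes through post-capillary venules, whereas in the glomerulus leukocytes are held in capillaries. At rest, endothelium keeps some of these molecules on its surface all the time, such as ICAM-2, and makes others, such as E-selectin and VCAM-1, mainly after inflammatory signals.

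The upstream sequences of the 2 selectins are shown because these members were found in some libraries of a compartment and hardly in others, Sele in venules and Selp in arterioles and venules. Of the 10 members, 7 had a promoter in the RefSeq table for GRCm38.p6 (Sele, Selp, Cd34, Icam1, Ackr1, Cxcl12 and Cx3cl1), whereas Icam2, Vcam1 and Ccl2 did not match. Each sequence holds the 250 bases before the start annotated in RefSeq, 5′ to 3′ on the + strand, and capitals mark the letters TATAAA.
Sele, chr1:164047984-164048233: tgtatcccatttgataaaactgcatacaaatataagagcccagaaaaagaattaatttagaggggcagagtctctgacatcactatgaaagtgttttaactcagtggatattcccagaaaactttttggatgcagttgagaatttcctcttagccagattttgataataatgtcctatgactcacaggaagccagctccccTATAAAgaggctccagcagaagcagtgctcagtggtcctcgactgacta
Selp, chr1:164115014-164115263: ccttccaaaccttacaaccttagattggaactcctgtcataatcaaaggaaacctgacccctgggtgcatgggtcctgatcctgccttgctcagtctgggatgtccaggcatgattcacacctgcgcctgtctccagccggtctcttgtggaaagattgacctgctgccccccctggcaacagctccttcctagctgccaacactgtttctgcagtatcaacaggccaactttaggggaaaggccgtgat
TATAAA stood at bases 202 to 207 of the Sele window and at bases 245 to 250 of the Cx3cl1 window, which lies partly inside that gene as GENCODE M21 annotates it, and on neither strand of the other 5 matched members. It was present in 12.4% of the 32851 promoters of the table.

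Library totals ranged from 4639090 to 12283098 counts. Levels are given as CPM, the counts a gene would have in a library of 1000000 counts after TMM scaling. Means are given ± SD over the 4 libraries of a group. Because reads come from the 3′ ends of transcripts, CPM is not divided by gene length. The libraries were amplified by PCR, and the sources read do not say whether copies of 1 molecule were counted once. Counts are therefore numbers of reads and not of molecules. Libraries are named by the number in the deposited table, and values follow the order 93, 96, 98 and 100. The 14 genes of a pan-endothelial list, none of them a member, took 0.266% to 0.374% of counts in arterioles, 0.186% to 0.239% in glomeruli, 0.0487% to 0.0992% in venules, 0.0296% to 0.0507% in peritubular capillaries and 0.0306% to 0.0364% in whole kidney. The peritubular capillary libraries thus overlapped whole kidney in their endothelial share, had no count of Sox18, and held 6.75% to 8.94% of proximal tubule list counts against 4.33% to 4.77% in whole kidney. In these bulk samples fewer endothelial cells and less RNA per cell cannot be told apart. Arterioles were the compartment with the highest smooth muscle share, 1.92% to 3.18%.

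**Figure D1:**
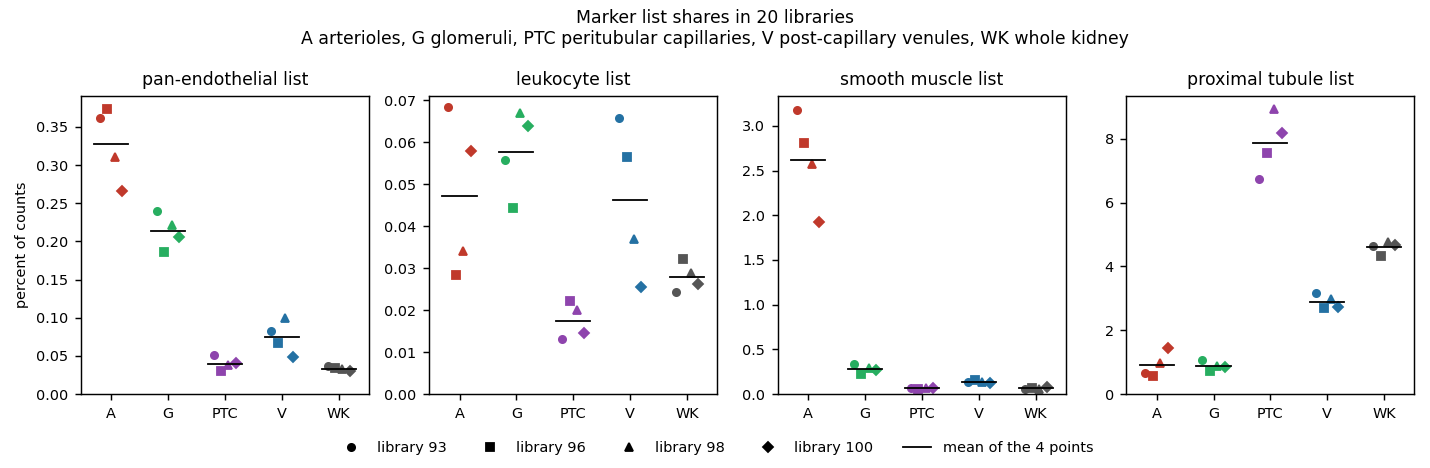
Percent of each library's counts on 4 marker lists, with 1 point per library (shape gives the library number) and a line at the mean of the 4 points. Endothelial shares are highest in arterioles and glomeruli, and peritubular capillaries overlap whole kidney in the endothelial list and lie above it in the proximal tubule list.

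Arterioles had the highest mean levels of Selp, Icam1, Icam2, Vcam1, Cxcl12 and Cx3cl1. Of these, Selp, Icam2, Vcam1 and Cx3cl1 were higher than in whole kidney by edgeR's quasi-likelihood test, Selp through 2 of the 4 libraries. Glomeruli held more Icam2 than whole kidney. In venules and peritubular capillaries no member passed the test, although Cx3cl1 lay above whole kidney in all 8 of their libraries. Sele was at trace levels outside 2 venule libraries. Ccl2 was low, at no more than 5.19 CPM in venules and 1.51 CPM in whole kidney and at trace levels elsewhere. Ackr1 was essentially undetected.

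A gene was called against whole kidney at an adjusted p (FDR over all 13813 genes tested) under 0.05 with a change of more than 1 log2 unit in either direction. Of the 8 members that passed the filter on low counts (all but Sele and Ackr1), 4 were called higher in arterioles, where 5.78% of all genes tested were called higher, and 1 was called higher in glomeruli, where the share was 1.59%. No member was called lower in any compartment. Of all genes 5.5% were called lower in arterioles and 1.47% in glomeruli, beside 0.0217% in venules and 0.00724% in peritubular capillaries. By unadjusted p under 0.05, 0 members were lower in each of the 4, and DESeq2 called 0. Of all genes DESeq2 called 2032 lower in arterioles, 538 in glomeruli, 229 in venules and 390 in peritubular capillaries. No member was called higher in peritubular capillaries, with 0.0869% of all genes called, or in venules, with 0.203%. By unadjusted p under 0.05, Cx3cl1 was higher in peritubular capillaries and Selp, Icam2, Vcam1 and Cx3cl1 in venules, and DESeq2 called 0 members and 1 (Selp). DESeq2 called 51 of all genes higher in peritubular capillaries and 83 in venules, where edgeR called 12 and 28. The median log2 fold change of all genes lay between 0.18 and 0.26 in the 4 comparisons.

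**Figure D2:**
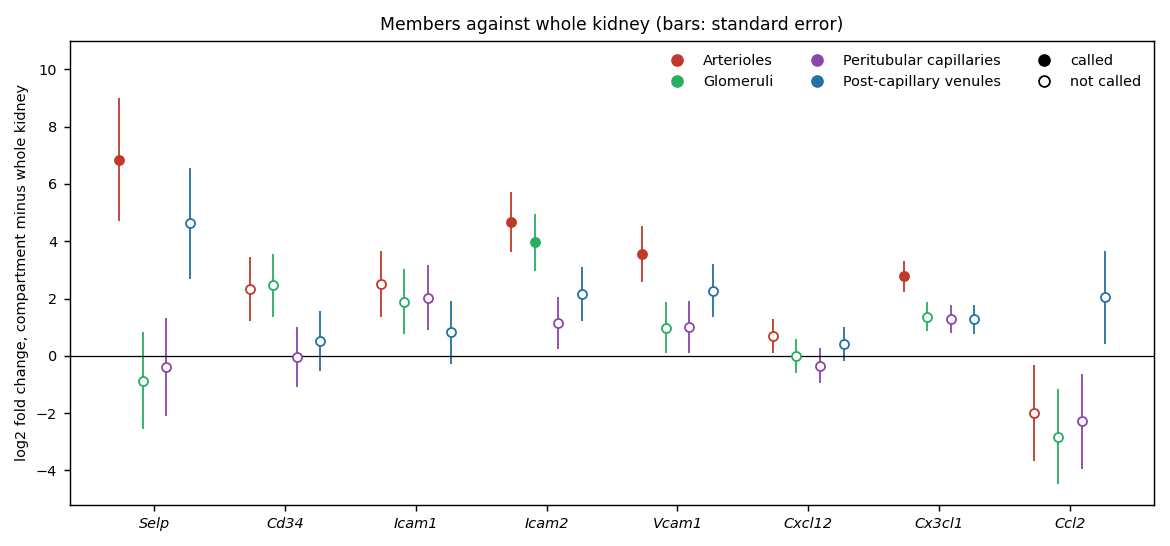
Log2 fold change of each tested member, compartment minus whole kidney, with bars of 1 standard error. Filled points were called, and these are Selp, Icam2, Vcam1 and Cx3cl1 in arterioles and Icam2 in glomeruli.

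Among the integrin ligands, Icam2 (chr11:106377656-106388075, - strand, GRCm38) showed the largest contrast between compartments. Its product is the ICAM that endothelium carries without stimulation. Arterioles gave 773, 111, 189 and 236 CPM and glomeruli 197, 166, 177 and 255. Venules gave 44.4, 93.6, 80.0 and 9.78 CPM and peritubular capillaries 1.37, 108, 1.75 and 1.57, against 12.2, 15.0, 12 and 12 in whole kidney. Every arteriole and glomerular library lay above every library of the other 3 groups, and in peritubular capillaries the mean rested on library 96, which is also the only one of the 20 with letters added to its name in the table, of unexplained meaning. The log2 fold change against whole kidney was 4.67 ± 1.05 (SE) in arterioles (FDR = 0.00265) and 3.96 ± 1.01 in glomeruli (FDR = 0.0195). The glomerular call was lost without glomeruli 100 (FDR = 0.0566) and on leaving out 1 whole kidney library, whichever it was (FDR up to 0.0759), whereas the arteriolar call of Icam2 held without each of the 20 libraries in turn (FDR up to 0.0194). These omissions also lowered the number of all genes called higher in glomeruli. It fell from 219 to 149 without glomeruli 100 and to between 115 and 124 without 1 whole kidney library.

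Icam2 was also higher in arterioles than in peritubular capillaries, by 3.54 ± 1.05 on the log2 scale (FDR = 0.0235 over the 12179 genes tested in the 16 microdissected libraries). This call was lost without arterioles 93 (FDR = 0.103) and when only the 8 libraries compared were fitted (FDR = 0.0962). Without peritubular capillaries 96, glomeruli exceeded peritubular capillaries in Icam2 by 6.98 on the log2 scale (FDR = 3.3e-05), and the log2 fold change of peritubular capillaries minus venules was -5.18 (FDR = 0.00652). With all 16 libraries these values were 2.82 (FDR = 0.107) and -1.02 (FDR = 0.866).

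Vcam1 (chr3:116109949-116129688, - strand) encodes the ligand of the integrin VLA-4 on lymphocytes and monocytes. Arterioles gave 111, 227, 336 and 23.0 CPM and venules 39.7, 120, 84.5 and 43.7. Glomeruli gave 13.1, 28.8, 47.5 and 27.5 CPM, peritubular capillaries 23.0, 29.4, 65.1 and 1.96, and whole kidney 12.8, 17.4, 16.4 and 12.9. All arteriole and all venule libraries lay above whole kidney, and the arteriole and venule libraries overlapped. Arterioles exceeded whole kidney by 3.55 ± 0.98 on the log2 scale (FDR = 0.0161), a call lost without arterioles 98 (FDR = 0.0544) or after omission of 1 whole kidney library, whichever it was (FDR up to 0.061). Omission of 1 whole kidney library also lowered all genes called higher in arterioles from 798 to between 438 and 456. In venules the log2 fold change of Vcam1 was 2.28 ± 0.93 (FDR = 0.368), and with only the 8 libraries compared it was 2.27 (FDR = 0.0141).

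Icam1 (chr9:21015985-21028817, + strand), the ligand of the leukocyte integrins LFA-1 and Mac-1, passed in no comparison. Glomeruli were even, at 75.0, 71.5, 61.0 and 55.5 CPM, and all 4 lay above whole kidney, which gave 17.6, 21.4, 18.2 and 13.7. Arterioles gave 90.8, 2.25, 150 and 158 CPM, venules 23.5, 71.8, 1.85 and 27.6, and peritubular capillaries 1.12, 15.8, 18.4 and 254. In each of these 3 compartments at least 1 library lay near 2 CPM or lower while another exceeded 70 CPM. The log2 fold change of Icam1 against whole kidney was 2.50 ± 1.16 in arterioles (unadjusted p = 0.0372, not called) and 1.89 ± 1.13 in glomeruli (FDR = 0.491). With only the 8 libraries compared it was 1.78 in glomeruli (FDR = 0.00266).

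Of the selectins, Sele (chr1:164048234-164057677, + strand) encodes E-selectin, on which leukocytes roll slowly. It had 235, 2, 0 and 128 counts in venules (26.3, 0.243, 0 and 17.2 CPM), so 2 of the 4 venule libraries carried nearly all of it. The other 12 microdissected libraries had at most 4 counts each, and whole kidney 8, 2, 2 and 0. Sele did not pass the filter on low counts and was not tested. Without that filter it was 5.98 higher in venules than in the other 3 compartments on the log2 scale (FDR = 0.0676), and DESeq2 called Sele higher in venules than in each of them (FDR from 0.0172 to 0.0279).

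Selp (chr1:164115264-164150026, + strand) encodes P-selectin, which endothelial cells and platelets store in granules and move to their surface within minutes. Arterioles had 2, 994, 241 and 4 counts (0.426, 160, 27.1 and 0.714 CPM) and venules 2, 154, 2 and 155 counts (0.224, 18.7, 0.371 and 20.8 CPM). Glomeruli, peritubular capillaries and whole kidney had at most 7 counts in any library. Selp was thus present in 2 of 4 arteriole and 2 of 4 venule libraries and near 0 in the others, and the groups overlapped. Arterioles exceeded whole kidney by 6.85 ± 2.14 on the log2 scale (FDR = 0.0337) and peritubular capillaries by 7.24 ± 2.42 (FDR = 0.0458). The call against whole kidney was lost without arterioles 96 (FDR = 0.144) or any 1 whole kidney library, and that against peritubular capillaries reached FDR = 0.208 when libraries were left out. All genes called higher in arterioles than in whole kidney numbered 798 with all libraries and 601 without arterioles 96. Without 1 whole kidney library they numbered 438 to 456. In venules the log2 fold change of Selp against whole kidney was 4.62 ± 1.93 (FDR = 0.392).

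The 5 platelet genes had the same order as Selp across the arteriole libraries, with 6.53e-05%, 0.0146%, 0.00231% and 0.000124% of counts, and their part in the Selp values was not tested. In venules these genes took 0.00478%, 0.0114%, 0.00584% and 0.00106%, lowest in library 100, where Selp was highest. Summed over the 4 libraries of a group, none of the 5 was at 0 counts in arterioles or in venules. The gene Gm16548, which lies over the 3′ end of Selp on the opposite strand, had 11 counts in whole kidney and 0 elsewhere. Gm16897, opposite the 3′ end of Cd34, had 23 counts in whole kidney and 0 elsewhere, and Gm47079, opposite that of Icam1, had 0 in all groups.

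Cd34 (chr1:194938819-194961279, + strand), a sialomucin of endothelium and stem cells that binds selectins when suitably glycosylated, was highest in glomeruli and arterioles. Glomeruli gave 65.4, 75.7, 130 and 66.0 CPM and arterioles 42.9, 37.8, 61.4 and 167. Peritubular capillaries gave 38.2, 17.3, 1.05 and 3.13 CPM, venules 14.9, 11.3, 2.96 and 58.3, and whole kidney 14.1, 11.8, 18.9 and 16.6. All glomerular and arteriole libraries lay above whole kidney, and glomeruli did not overlap peritubular capillaries or venules. The log2 fold change of Cd34 against whole kidney was 2.46 ± 1.11 in glomeruli (FDR = 0.263) and 2.33 ± 1.11 in arterioles (FDR = 0.135). DESeq2 called it in arterioles (FDR = 0.0249), and the fit of only the 8 libraries compared called it in glomeruli (FDR = 0.000721).

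**Figure D3:**
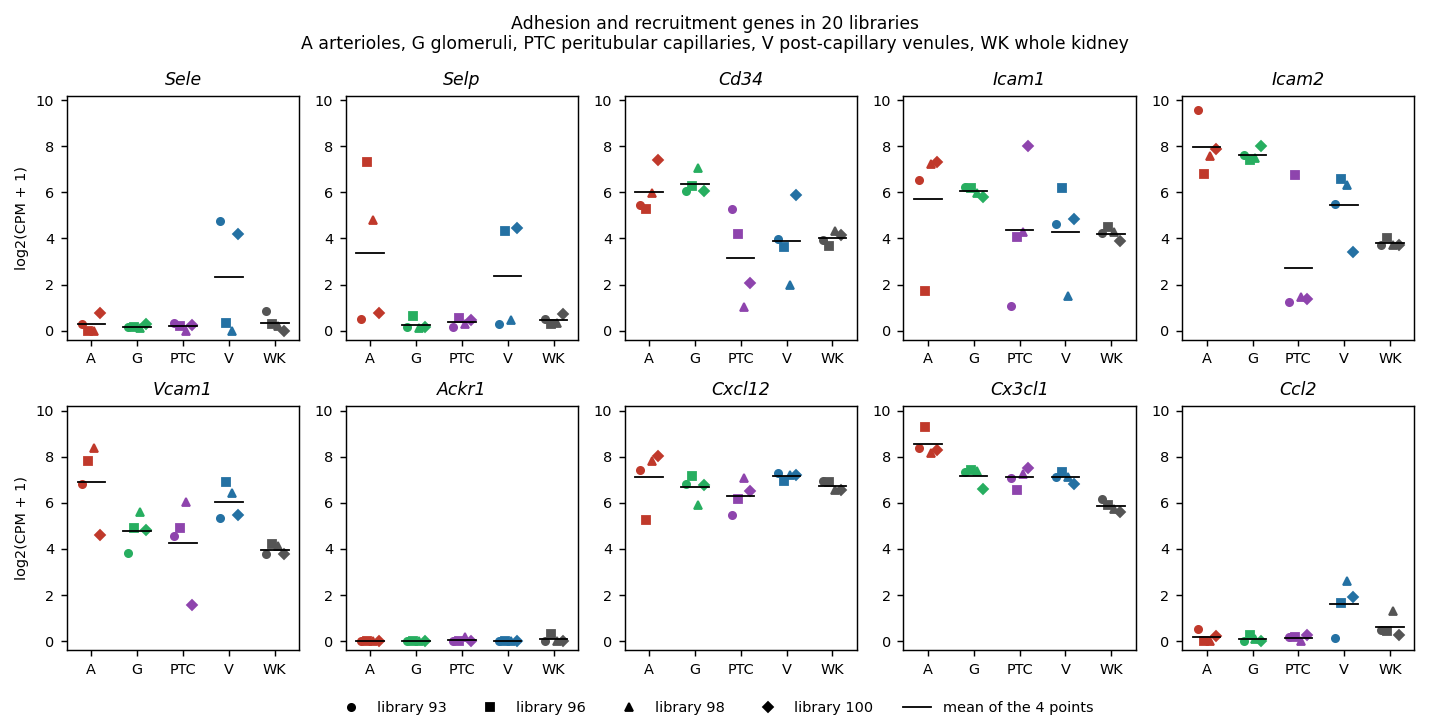
Levels of the 10 members in each library as log2(CPM + 1), with 1 point per library (shape gives the library number) and a line at the mean of the 4 points. Cx3cl1 is above whole kidney in all 16 microdissected libraries, Ackr1 is at or near 0 throughout, and Sele is above trace levels in 2 of the 20 libraries, both of venules.

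Cx3cl1 (chr8:94772009-94782427, + strand) was the most evenly measured member. It encodes fractalkine, a chemokine that is anchored in the endothelial membrane and holds monocytes through the receptor CX3CR1. Arterioles gave 337, 635, 285 and 311 CPM and whole kidney 70.2, 58.6, 53.0 and 48.1. Glomeruli gave 163, 171, 164 and 97.0 CPM, peritubular capillaries 136, 94.0, 153 and 180, and venules 141, 160, 140 and 114. Arterioles overlapped no other group, and the other 3 compartments overlapped each other but not whole kidney. The log2 fold change against whole kidney was 2.77 ± 0.52 in arterioles (FDR = 0.000377), a call that held without each of the 20 libraries in turn (FDR up to 0.00552). For Cx3cl1 it was 1.37 ± 0.50 in glomeruli (FDR = 0.132), 1.29 ± 0.50 in peritubular capillaries (FDR = 0.292) and 1.27 ± 0.50 in venules (FDR = 0.346). Where only the 8 libraries compared were fitted, Cx3cl1 was called in all 3 (FDR from 0.00426 to 0.0367).

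Cxcl12 (chr6:117168535-117181367, + strand), which attracts cells with the receptor CXCR4 and is made at rest by stromal and endothelial cells, was abundant in every group. Whole kidney gave 123, 119, 94.8 and 94.0 CPM and venules 158, 123, 148 and 147. Arterioles gave 173, 37.0, 223 and 261 CPM, glomeruli 113, 145, 59.5 and 110, and peritubular capillaries 43.1, 70.7, 135 and 91.3. All 4 venule libraries lay above the highest whole kidney library, the nearest by less than 1 CPM, and the other compartments overlapped whole kidney. Fold changes of Cxcl12 lay between -0.34 and 0.69 on the log2 scale with standard errors of about 0.61, and none passed the test (FDR from 0.445 to 1).

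Ccl2 (chr11:82035571-82037453, + strand) encodes the main chemoattractant of inflammatory monocytes. Venules had 1, 18, 28 and 21 counts (0.112, 2.19, 5.19 and 2.81 CPM) and whole kidney 4, 3, 22 and 2 counts. The other 12 libraries had at most 2 counts each. The log2 fold change of Ccl2 in venules against whole kidney was 2.04 ± 1.63 (FDR = 0.937). At these counts differences of Ccl2 between compartments were hardly measurable, and it did not pass the filter among the 16 microdissected libraries.

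Ackr1 (chr1:173331886-173333750, - strand) encodes a receptor of venular endothelium and red cells that binds chemokines without signaling. It had 0 counts in arterioles, glomeruli and venules, 1 count in peritubular capillaries and 2 in whole kidney. In venules 0 of 30746953 counts allows a level of up to 0.0976 CPM over the 4 libraries, taking 3 counts as the limit and covering counting error only. The venule libraries contained other venous endothelial genes, as all 5 genes of that list were detected and together took 0.047% to 0.057% of counts, with Plvap the most abundant, against 0.0281% to 0.0323% in whole kidney. These shares overlapped those of glomeruli, at 0.0344% to 0.0616%, and of arterioles, at 0.0159% to 0.0487%, so the list did not set venules apart from them.

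Among the 4 compartments themselves, called at FDR under 0.05, 2 of the 7 members tested differed between arterioles and peritubular capillaries (Icam2 and Selp), where 11.2% of all genes did. No member passed in the other 5 pairs. There the shares of all genes called were 2.19% for arterioles and glomeruli, 4.38% for arterioles and venules, 4.49% for glomeruli and peritubular capillaries, 1.22% for glomeruli and venules and 0.411% for peritubular capillaries and venules. By unadjusted p under 0.05 these 5 pairs gave 3, 2, 1, 1 and 1 members, and DESeq2 called 3, 2, 0, 2 and 2. In the same order DESeq2 called 2013, 2445, 1698, 776 and 756 of all genes, where edgeR called 267, 533, 547, 149 and 50. The members called by DESeq2 were Cx3cl1, Selp and Vcam1 between arterioles and glomeruli, Cx3cl1 and Sele between arterioles and venules, and Sele and Selp in both of the pairs of venules with glomeruli and with peritubular capillaries.

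Marker mRNAs of a compartment were genes higher than in the mean of the other 3 on the log scale (FDR under 0.05) with at least 10 CPM in all 4 of its libraries. Icam2 (log2 fold change of 2.26 ± 0.71, FDR = 0.032), Vcam1 (2.13 ± 0.72, FDR = 0.0497) and Cx3cl1 (1.46 ± 0.42, FDR = 0.02) were markers of arterioles, 3 of 7 members against 4.77% of all genes. Each of the 3 lost this call in at least 1 omission of a library, with FDR up to 0.244 for Icam2, 0.197 for Vcam1 and 0.105 for Cx3cl1. Selp was higher in arterioles by 5.72 ± 1.42 (FDR = 0.00593) but fell short of 10 CPM in 2 libraries. No member was a marker of glomeruli (1.5% of all genes), peritubular capillaries (3.24%) or venules (0.238%). Of these, 0, 0 and 1 members (Selp in venules) were higher at an unadjusted p under 0.05, and DESeq2 called 0 in each.

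By CPM arterioles had the highest mean of Cx3cl1, Icam2, Vcam1, Selp, Icam1 and Cxcl12, but per endothelial count they had the highest mean of none of these. Each member was divided by the summed counts of the pan-endothelial list in the same library and given per 1000 such counts. Cx3cl1, highest in arterioles by CPM, was at 89.3 ± 12.5 in arterioles and 89.3 ± 23.9 in glomeruli, below venules at 192 ± 30 and peritubular capillaries at 299 ± 26 (SD, n = 4), with whole kidney at 203 ± 22. The proximal tubule list took 6.75% to 8.94% of counts in peritubular capillaries, 2.69% to 3.17% in venules, 0.731% to 1.07% in glomeruli and 0.569% to 1.44% in arterioles. These shares, too, were higher in peritubular capillaries and venules than in glomeruli and arterioles, and their part in the ratio was not tested. Arterioles and glomeruli overlapped neither venules nor peritubular capillaries on this scale, and venules did not overlap peritubular capillaries. Each of these 5 pairs reached p = 0.0286 in a two-sided exact permutation test, the smallest p that 4 against 4 libraries allow, and 0.19 after adjustment over the 60 tests of members and pairs. The log2 ratio of Cx3cl1 in arterioles to peritubular capillaries was -1.74 with the list, -2.95 with Pecam1 alone as the denominator and -3.14 with Pecam1 and Cdh5.

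Cxcl12 per 1000 endothelial counts was 201 ± 45 in venules, 188 ± 90 in peritubular capillaries, 64.7 ± 25.1 in glomeruli and 49.8 ± 36.0 in arterioles, with whole kidney at 380 ± 29. Venules overlapped neither arterioles nor glomeruli. Vcam1 was 99.1 ± 52.1 in venules and 17.6 ± 8.6 in glomeruli, without overlap, with arterioles at 43.3 ± 45.2 and peritubular capillaries at 71.1 ± 59.2. Ccl2 was 3.61 ± 2.63 in venules and 0.0371 ± 0.0448 in arterioles. Its lowest venule value was 0.134, from 1 count in library 93, and its highest arteriole value 0.0904, from 2 counts. The order of these 2 libraries thus rested on their endothelial counts, and by CPM the groups overlapped in Ccl2. Selp averaged 16.2 ± 18.9 in venules and 8.10 ± 10.9 in arterioles, each mean carried by 2 libraries. The 4 pairs of venules with arterioles (Cxcl12 and Ccl2) or glomeruli (Cxcl12 and Vcam1) gave p = 0.0286 by the exact permutation test. Each stood at 0.19 after adjustment, whereas Selp in venules against arterioles gave p = 0.4 by the exact permutation test. Thus 9 of the 60 tests stood at the smallest p, and none passed the adjustment.

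Icam2 was spread over 16.1 to 164 per 1000 endothelial counts in arterioles (mean of 79.5), 105 to 149 in glomeruli (118.5), and 17.8 to 132 in venules (74.3). Peritubular capillaries gave 2.68, 361, 3.71 and 2.52, so that 3 of the 4 lay below every library of the other compartments. Their mean of 92.5 rested on library 96. For no pair of compartments did Icam2 pass the test with all libraries (exact permutation p from 0.2 to 1). Cd34 averaged 50.6 in glomeruli, 35.8 in venules, 34.9 in peritubular capillaries and 22.2 in arterioles, and Icam1 39.4, 45.5, 126 and 30.0. The venule mean of Cd34 rested on library 100, as the values were 17.9, 16, 3.48 and 105.9, and so did the peritubular capillary mean of Icam1, with 2.19, 52.7, 39.1 and 409. No pair of compartments passed the test for either gene (exact permutation p from 0.114 to 0.971 for Cd34 and from 0.486 to 0.8 for Icam1).

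**Figure D4:**
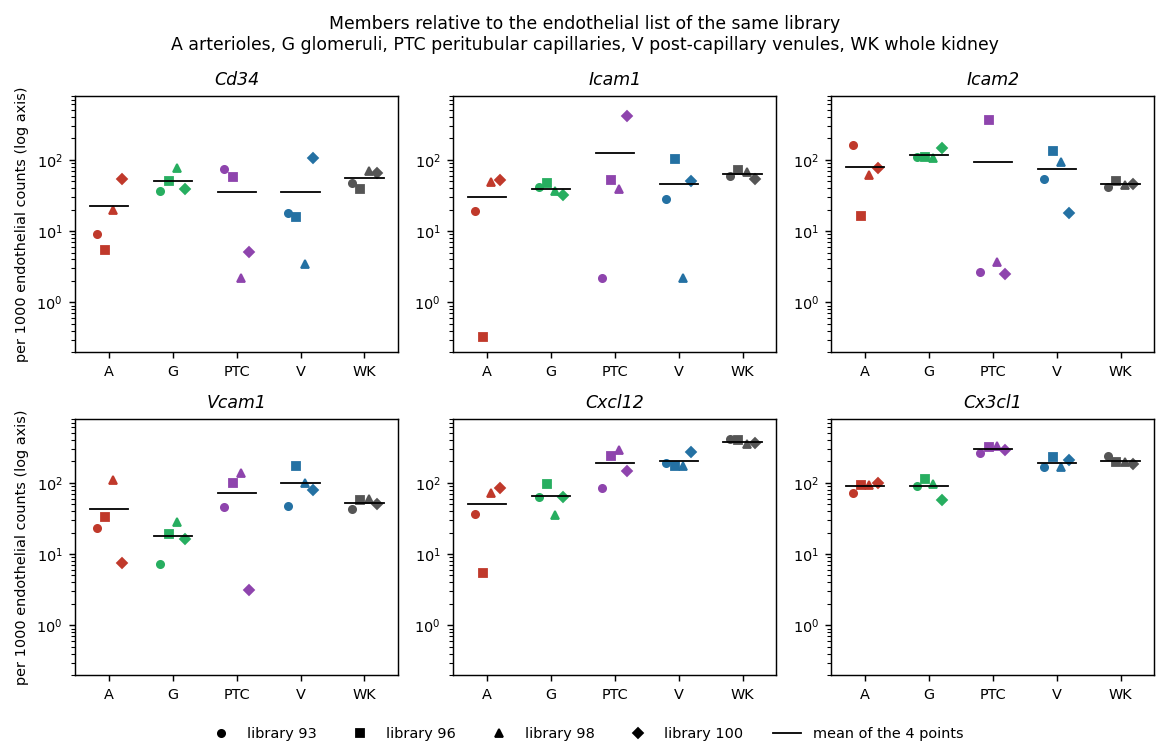
Counts of 6 members per 1000 counts of the pan-endothelial list in the same library, on a log axis, with 1 point per library (shape gives the library number) and a line at the arithmetic mean. For Cx3cl1 arterioles and glomeruli lie below venules and peritubular capillaries without overlap, and Icam2 in peritubular capillaries is high in library 96 alone.

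The list of 13 leukocyte genes took 0.0284% to 0.0684% of counts in arterioles, 0.0444% to 0.0671% in glomeruli, 0.0256% to 0.0659% in venules, 0.013% to 0.0222% in peritubular capillaries and 0.0243% to 0.0321% in whole kidney. Cd3e and Cd79a had no counts in arterioles or peritubular capillaries, and Lyz2 was the most abundant gene of the list in all 4 compartments. The 7 fibroblast genes took 0.205% to 0.316% in arterioles and 0.117% to 0.265% in venules against 0.0316% to 0.0369% in whole kidney. These shares were higher in the compartments where Vcam1 was higher, and their part in its level was not tested.

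The genes that act with the members are given by list, from selectin ligands to signaling, and counts of genes higher than in whole kidney stand beside 5.78% of all genes for arterioles, 1.59% for glomeruli, 0.203% for venules and 0.0869% for peritubular capillaries. Of the 11 selectin ligand and glycosylation genes tested, of 18 listed, 1 was higher and 1 lower than in whole kidney in arterioles and in glomeruli, 1 was higher in venules, and none was called in peritubular capillaries. The list median on the log2 scale was 0.93 for arterioles, 0.92 for glomeruli, 0.08 for venules and -0.95 for peritubular capillaries. The higher gene was Podxl, the sialomucin of podocytes and endothelium, which stood at 87.8 CPM in whole kidney, at 985 in arterioles, at 3557 in glomeruli and at 243.5 in venules (FDR = 3.53e-09, 1.41e-12 and 0.029). The lower gene was Gcnt1, an enzyme that builds the O-glycan core of selectin ligands, with 534 CPM in whole kidney, 144 in arterioles and 99.3 in glomeruli (FDR = 0.0191 and 0.00612). Against the other compartments, peritubular capillaries were higher in Gcnt1, at 1200 CPM and a mean of 215.5 elsewhere (FDR = 1.82e-05). The proximal tubule share of counts was also higher in peritubular capillaries (6.75% to 8.94%) than in whole kidney and the other compartments. Its part in the Gcnt1 levels was not tested. Peritubular capillaries were lower in Podxl, at 121 CPM and a mean of 1595 elsewhere (FDR = 1.38e-07). St3gal4, a sialyltransferase that caps selectin ligands, was also lower there, at 0.0311 CPM beside a mean of 23.8 (FDR = 0.0269), but that mean was carried by arterioles 96 at 168 CPM, and arterioles 98 and glomeruli 98 were at 0.112 and 0.156.

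Of 13 junction and transmigration genes tested, of 16 listed, 4 were higher and 1 lower than in whole kidney in arterioles and 1 was higher in glomeruli, with none in the other 2 compartments. Pecam1, which leukocytes bind as they cross the junction, rose from 65.1 CPM in whole kidney to 1661 in arterioles and 350.0 in glomeruli (FDR = 8.03e-08 and 0.0019). Mcam, also called CD146, was at 178 CPM in arterioles against 4.11 (FDR = 0.00271), and Nectin2, a cell contact protein, at 0.539 against 19.1 (FDR = 0.00667). The median log2 fold change of the list was 2.18 in arterioles and 1.45 in glomeruli, beside all-gene medians of 0.22 and 0.26, with 0.13 in peritubular capillaries and 0.90 in venules, where all genes had 0.18 and 0.19, and Pecam1, Cdh5 and Esam are also genes of the pan-endothelial list.

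Of 7 leukocyte integrin genes tested, of 8 listed, 2 were higher in arterioles and 1 in glomeruli, and the list medians were 1.06 and 2.38 there, -0.51 in peritubular capillaries and 1.89 in venules. Itgb1, the widely expressed beta chain of VLA-4, rose from 143 CPM in whole kidney to 1084 in arterioles and 742 in glomeruli (FDR = 2.17e-06 and 0.000147), and Itga4, the alpha chain of VLA-4, from 2.02 to 67.5 in arterioles (FDR = 0.0387). In glomeruli Itga4 stood at a like 69.9 CPM with a log2 fold change of 5.10, which was not called (FDR = 0.0742). Of 18 further chemokine genes tested, of 34 listed, only Ccl9 was called against whole kidney, lower in arterioles (FDR = 0.0467), with 0 counts there and 4, 7, 49 and 11 in the whole kidney libraries, most of them in library 98. Against the other compartments Pf4, a platelet chemokine, was higher in arterioles (FDR = 0.0116) and Cxcl13, which attracts B cells, in glomeruli (FDR = 0.0262), and neither reached 10 CPM in all 4 libraries. The medians of this chemokine list were -0.77 for arterioles, 0.44 for glomeruli, 0.89 for venules and -0.91 for peritubular capillaries. None of the 8 chemokine receptors tested, of 18 listed, was called in any compartment, with medians of -1.97, 0.83, 1.43 and 0.22.

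The 26 cytokine receptor and NF-kB genes were all tested. In arterioles 5 were higher and none lower, in glomeruli 1 was higher, and in peritubular capillaries and venules none was called, with list medians of 1.48, 1.26, 0.03 and 0.26 on the log2 scale. Nfkbia, the inhibitor of NF-kB that NF-kB itself induces, rose from 102 CPM in whole kidney to 699 in arterioles and 367 in glomeruli (FDR = 0.000216 and 0.0241). Rela, the p65 subunit of NF-kB, was at 329 CPM against 32.4 (FDR = 0.0139) and Tnfrsf1a, the main receptor of tumor necrosis factor, at 248 against 37.9 (FDR = 0.00297), both in arterioles.

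The spread between libraries differed between compartments. Among 9329 genes with a mean of at least 10 CPM, the highest library exceeded the lowest by a median of 42.2-fold in arterioles, 14.0-fold in peritubular capillaries, 7.96-fold in venules, 4.35-fold in glomeruli and 1.39-fold in whole kidney, after 0.5 CPM was added to each value. For the 7 members in this set the medians were 6.96-fold, 24.9-fold, 9.15-fold, 1.82-fold and 1.46-fold. More than 10-fold spread was seen for 3 of the 7 in arterioles, 4 in peritubular capillaries, 3 in venules and none in glomeruli or whole kidney, beside 69%, 55.2%, 46%, 31.1% and 0.107% of all genes in the set.

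The genes whose levels followed a member most closely over the 16 microdissected libraries are given as a description, as these points share compartments and depth. For Icam2 they were Acvrl1, Cactin and Cdh5 (Pearson r of 0.915, 0.893 and 0.89), for Cx3cl1 Fam162a, Mbnl1 and Mustn1 (0.917, 0.913 and 0.907), and for Cd34 Atp1b2, Fam81a and Sema3g (0.886, 0.85 and 0.849). For Vcam1 they were Prdm16, Snrnp70 and Fstl1 (0.852, 0.844 and 0.824), for Icam1 Gtf2f1, Rpl10a and Dchs1 (0.866, 0.859 and 0.846), for Selp Rpl38, Ncl and Pcdhgc5 (0.824, 0.804 and 0.803), and for Cxcl12 Ubb and Ptpru (0.766 and 0.76).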

How the data were processed

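The authors microdissected the compartments, isolated RNA with NucleoZOL and made 3′ mRNA libraries with the QuantSeq FWD kit, using its low-input variant for microdissected RNA. Reads were trimmed with bbduk, aligned with STAR 2.7 to GRCm38.p6 and counted per gene with HTSeq 0.13. The submitters' processing notes also name GRCm39 and featureCounts. The strand setting was not given in the sources read, and antisense overlaps therefore cannot be resolved. The authors deposited raw counts in 1 table of 34255 genes (561 without a symbol) and 168 columns of per-sample values, of which 20 were used and 148 were not. Columns were assigned to groups from the table's headers. The study's methods describe slides cut per mouse and 4 samples of each kind, and the labels call them biological replicates without tying a library to a mouse.

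Counts were tested with edgeR 4.0.16 (R 4.3.3) with TMM scaling, filterByExpr by group (minimum count of 10) and its quasi-likelihood F test (version 3 form). The study's methods name edgeR's quasi-likelihood functions and an adapted independent filter, the latter an alternative here. All 20 libraries were fitted for the comparison with whole kidney and the 16 microdissected libraries for pairs and markers. FDR is the Benjamini-Hochberg value over all genes tested. Ratios to endothelial counts were compared by exact permutation (SciPy 1.17.1). Members were named first, then up to 3 called genes per pathway list with the smallest FDR, and the 3 genes most like each member, passing over predicted genes, and 1 item is not reported here. Members and lists were chosen with earlier results of these data known. Coordinates are from GENCODE M21. The fits were tested on simulated data that had the same spread in every group. The groups here differed in spread, so that test does not show how the fits behave with such a difference. Alternatives were RLE scaling, DESeq2 1.42.0, no filter, independent filtering, the version 4 form, fewer or more libraries in the fit, a replicate block, a prior count of 2, no CPM minimum, other endothelial denominators (Pecam1, or Pecam1 and Cdh5) and leaving out each library.

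Totals of 4639090 to 12283098 counts per library put 3 counts at 0.244 to 0.647 CPM, and this limit covers counting error only.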

Additional observations from a re-analysis of the deposited data

Results flagged for a closer look

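Of 47 sets of 4 libraries (a member in a group) with any counts, 11 held a library whose gap to its nearest neighbour was a larger part of the range of the set than Dixon's 95% critical value. For normally distributed values chance alone gives about 1 such set in 20. That rate does not hold for skewed values or low counts, such as Selp in glomeruli and Ccl2 in whole kidney. Nor does it apply to the 2 sets of Ackr1, which had counts in 1 library only, so that the gap equals the range by construction. In arterioles, library 96 was apart for Selp at 160 CPM and for Cx3cl1 at 635 CPM. In glomeruli, library 96 was apart for Selp at 0.552 CPM, library 98 for Cd34 at 130.2 CPM and library 100 for Cx3cl1, the lowest there, at 96.95 CPM. In peritubular capillaries, library 96 was apart for Icam2 at 108 CPM, library 100 for Icam1 at 254 CPM and library 98 for Ackr1 at 0.117 CPM, which is 1 count. In whole kidney, library 96 was apart for Icam2 at 14.97 CPM and for Ackr1 at 0.23 CPM, which is 2 counts, and library 98 for Ccl2 at 1.51 CPM.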

How the results depend on the processing

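Of 102 fold changes of members recomputed under 2634 combinations with an alternative, 2546 stayed on their side of the threshold, 50 calls were lost, 38 were gained and 0 called values changed sign, while 54 uncalled values did. Few of the 102 were called to begin with. Against whole kidney these were 4 in arterioles and 1 in glomeruli, with 2 between arterioles and peritubular capillaries and 3 arteriolar markers. Most combinations were therefore uncalled values that stayed uncalled, and the 50 losses fell on these few calls. A prior count of 2 changed no count of all genes called against whole kidney or between compartments. Causes were not tested. Members higher than whole kidney numbered 2 to 4 in arterioles when 1 library was left out (2 without any 1 whole kidney library), and 0 to 1 in glomeruli. With 1 library left out, all genes called higher numbered 438 to 970 in arterioles and 115 to 310 in glomeruli. The main fit gave 798 and 219, and fits without 1 whole kidney library gave 438 to 456 and 115 to 124. In glomeruli members numbered 2 with DESeq2, 2 with the version 4 form and 4 with only the libraries compared, in peritubular capillaries 1 with only the libraries compared, and in venules 1 with DESeq2 and 2 with only the libraries compared. All genes called higher in glomeruli rose from 219 to 449, 688 and 1508 under these settings. In peritubular capillaries they rose from 12 to 314, and in venules from 28 to 83 and 317. Between arterioles and peritubular capillaries members numbered 0 to 2 when 1 library was left out, 1 without a filter, 1 with the replicate block, 4 with DESeq2, 4 with all 20 libraries and 0 with only the libraries compared. All genes called there numbered 1364 in the main fit and 989 to 1386 when 1 library was left out. The other settings gave, in the same order, 1393, 1096, 3382, 2713 and 618 genes. Between arterioles and glomeruli the count of members was 2 with the version 4 form, 3 with DESeq2 and 1 with all 20 libraries, and between arterioles and venules 1 with independent filtering, 1 with the version 4 form, 2 with DESeq2 and 1 with all 20 libraries. For arterioles and glomeruli all genes called rose from 267 to 843, 2013 and 814 under these settings. For arterioles and venules they rose from 533 to 911, 1194, 2445 and 1430. Between glomeruli and peritubular capillaries the count of members was 1 without a filter, with independent filtering, with the version 4 form and with the replicate block, and 0 to 1 when 1 library was left out (1 without peritubular capillaries 96). All genes called there went from 547 in the main fit to 597, 801, 1150 and 555 in the first 4 settings. Without peritubular capillaries 96 they numbered 434. DESeq2 gave 2 members between glomeruli and venules and 2 between peritubular capillaries and venules, where leaving out 1 library gave 0 to 1 (1 without peritubular capillaries 96). Of all genes DESeq2 called 776 and 756 in these pairs, against 149 and 50 in the main fit. Without peritubular capillaries 96 the last pair had 27. Arteriolar markers numbered 1 to 3 when 1 library was left out (1 without arterioles 96) and 1 with the replicate block, and glomerular markers 0 to 1 (1 without peritubular capillaries 96).

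Same-numbered libraries correlated at -0.05 to 0.06 in their deviations from the group means over 40 pairs, with a median of 0.00637. Over 120 pairs with other numbers the range was -0.09 to 0.04 and the median -0.00197. In both kinds 0 pairs exceeded 0.1. These values do not decide whether the numbers pair libraries, and the sources do not say whether a number marks a mouse. With the replicate block as a term, Selp in arterioles was not called against whole kidney (FDR = 0.0878) or peritubular capillaries (FDR = 0.133), the arteriolar markers Vcam1 and Cx3cl1 were at FDR = 0.143 and 0.0556, and Icam2 was called between glomeruli and peritubular capillaries (FDR = 0.0145). On the endothelial scale, 9 pairs of compartments stood at the smallest exact p with Pecam1 as denominator and 12 with Pecam1 and Cdh5, against 9 with the list. With 4 libraries a group, the 7 members with a mean of at least 10 CPM had a median spread of 6.96-fold in arterioles and 24.9-fold in peritubular capillaries, which limits what differences can be resolved, and Sele, Ccl2 and Ackr1 were limited by their counts.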
